A study of Mus musculus with 14 samples.

Results

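The transcription factors Cdx2, Eomes, Elf5, Hand1, Tfap2c, Tead4 and Dlx3, which are known for their roles in the trophoblast lineage of the mouse embryo, were followed over germline stem cells, the pluripotent lines derived from them and embryonic stem cells. All probes whose platform gene symbol is one of these 7 names were taken, which gave 13 of 25697 probes, from 7 of 16593 named genes. Expression was read on Illumina Mouse-8 v2 BeadChips, on which each probe has a fluorescence intensity and a detection p-value, 1 array per sample and 14 in all. Intensities were background-corrected, quantile-normalized and put on a log2 scale, and every level given here is such a log2 intensity unless a deposited intensity is named. A probe was called detected on an array at a detection p under 0.01.

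Germline stem cells (GSC) are stem cells grown from the testis, and the labels give their potency as unipotent. Germline-derived pluripotent stem cells (gPS) were derived from such cells, and the series text calls the gPS lines clonal. Each cell type was represented by 3 OG2 lines, of strain C57BL6 with an Oct4-GFP transgene, and by 3 OG2-ROSA lines, of strain C57BL6 x 129sv with Oct4-GFP and LacZ transgenes. Embryonic stem cells (ESC) of strain C57BL6, with no transgene given, were represented by 2 arrays. The labels list 14 samples with 1 array for line 2 of GSC OG2-ROSA, although the design text speaks of 13 with 2 replicates of that line; the listing was followed. All groups but ESC carried the Oct4-GFP transgene. Strain, transgene and any batch cannot be told apart between OG2 and OG2-ROSA, because strain and transgene differ together between them. Sample titles also carry a replicate tag for OG2 and ESC but not for OG2-ROSA.

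In the early mouse embryo the first lineage decision separates the trophectoderm from the inner cell mass, from which pluripotent stem cells are derived. Tead4, acting with the Hippo pathway co-activator Yap1, is needed upstream of Cdx2 in outer cells, and Cdx2, Eomes, Elf5 and Tfap2c then maintain trophoblast stem cells. Hand1 acts in trophoblast giant cell differentiation and Dlx3 in the labyrinth of the placenta. Tfap2c is also a germ cell gene, and Cdx2, Eomes and Hand1 are used again in the primitive streak and early mesoderm.

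The promoters of 3 of the 7 genes were matched by symbol in the RefSeq table of build GRCm38.p6, 4 promoters in all. Those of Cdx2, which was detected in the gPS lines of 1 background only, and of Elf5, of which no probe was detected, are shown. Each is the 250 bases before the start of the gene, 5′ to 3′ on the gene's strand, at chr5:147307250-147307499 (minus strand) for Cdx2 and chr2:103411848-103412097 (plus strand) for Elf5. Capitals mark the POU octamer ATGCAAAT in Cdx2 and the TEAD motif GGAATG, on the opposite strand as CATTCC, in Elf5.

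Cdx2: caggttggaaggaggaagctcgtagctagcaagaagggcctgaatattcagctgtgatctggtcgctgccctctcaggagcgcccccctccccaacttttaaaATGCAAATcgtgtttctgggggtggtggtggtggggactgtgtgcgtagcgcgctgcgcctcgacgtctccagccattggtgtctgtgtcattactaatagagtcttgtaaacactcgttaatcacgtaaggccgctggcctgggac

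Elf5: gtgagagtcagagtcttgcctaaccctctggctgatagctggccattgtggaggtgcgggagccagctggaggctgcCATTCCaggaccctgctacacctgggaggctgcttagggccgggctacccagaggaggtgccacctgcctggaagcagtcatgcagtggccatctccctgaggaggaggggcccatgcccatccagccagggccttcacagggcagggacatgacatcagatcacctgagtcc

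Both strands of the 4 promoters were searched for the octamer, the TEAD motif and TATAAA, and no 2 matches overlapped. Of 32851 promoters of the same length, 1.60% held the octamer, 12.6% the TEAD motif and 12.4% TATAAA. The Cdx2 promoter held 13 CpG dinucleotides and this Elf5 promoter 2, against a median of 6 over all promoters. The promoter of Eomes and the other promoter of Elf5 held 8 CpG each and no match. A match describes the letters in this window and is not evidence of a bound factor.

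The cell type labels were checked on marker genes. All 7 markers of pluripotent cells were detected on every gPS and ESC array, and 6 or 7 of 7 spermatogonial markers on every GSC array. Of the pluripotent markers 4 or 5 were also detected on each GSC array, with means of 6.99 to 7.88 against 11.39 to 12.03 on the gPS and ESC arrays. Among spermatogonial markers gPS OG2 line 1 detected 4 (mean 6.12), and the other gPS and ESC arrays 0 to 2 (means 4.92 to 5.69). Their means were 10.08 to 10.40 on the GSC arrays. Mean deposited intensity was 614 to 639.5 on the GSC arrays and 513 to 622 on the ESC and gPS arrays, except for 379 and 308 on gPS OG2-ROSA lines 1 and 2, called the dim arrays here. Between 9638 and 11610 probes were detected per array. Fibroblast markers, of which 10 are on the array, had a mean log2 intensity of 8.23 to 8.86 on the GSC OG2 arrays and 6.21 to 8.37 on the GSC OG2-ROSA arrays, against 5.76 to 6.62 for gPS OG2, 5.45 to 7.20 for gPS OG2-ROSA and 6.14 to 6.16 for ESC. Between 6 and 9 of the 10 were detected on each GSC array and 2 to 8 on the others. The part of these cells in the results below was not tested, and in bulk RNA fewer cells of a type and less RNA per cell cannot be told apart.

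Of the 13 probes, 8 were detected on at least 2 arrays and entered the tests, covering Cdx2, Eomes, Tfap2c (3 probes), Tead4 (2 probes) and Dlx3. They are 5 of the 7 genes, against 8950 of 16593 over the whole array. No probe of Elf5 or Hand1 was detected on any of the 14 arrays. The 3 Elf5 probes lay between 4.41 and 5.13 and their lowest detection p was 0.0639. The Hand1 probe lay between 4.39 and 4.73 with a lowest detection p of 0.348. The lowest signal among detected probes was 5.54 to 6.22, depending on the array, so both genes were not well above background in every sample, and no fold is given for them. Another Tead4 probe, ILMN_2711978, was likewise undetected throughout (4.53 to 5.59). Of all probes on the array, 11647 were detected nowhere.

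**Figure D1:**
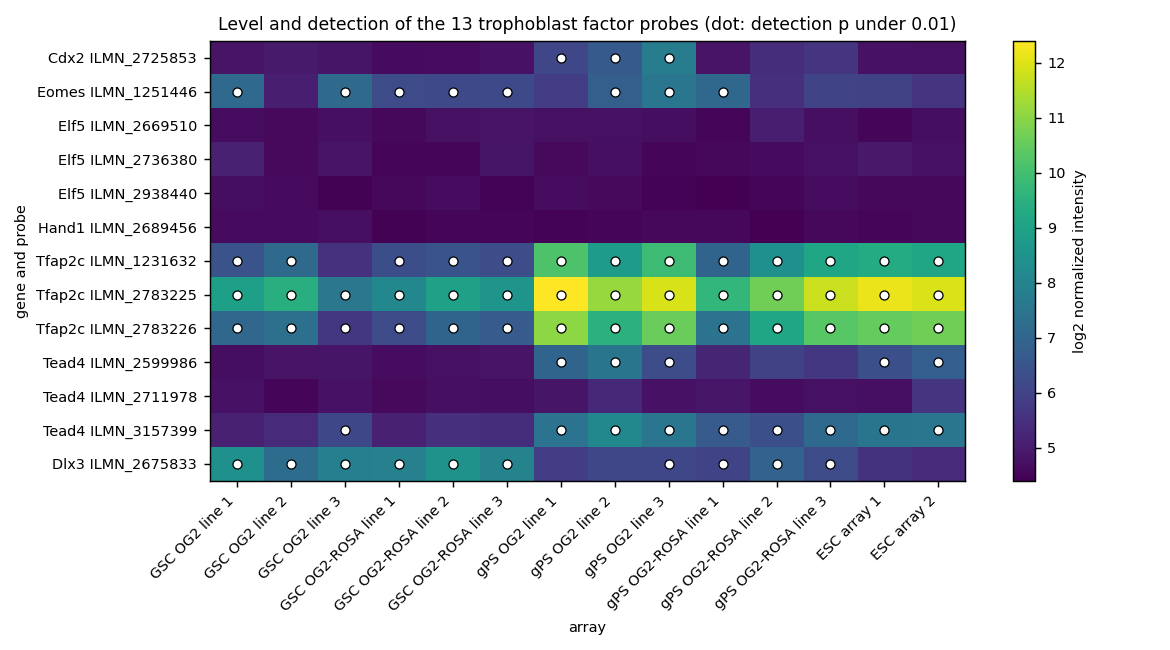
Log2 normalized intensity (colour) of the 13 probes (rows) on the 14 arrays (columns); a white dot marks a detection p under 0.01. Tfap2c was detected on every array, Elf5 and Hand1 on none, and Cdx2 on the 3 gPS OG2 arrays only.

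Cdx2, the homeobox factor that is sufficient to turn embryonic stem cells towards trophoblast in the mouse, was detected on the 3 gPS OG2 arrays and on no other. Its level was 6.08, 6.65 and 7.78 in gPS OG2 lines 1, 2 and 3, with deposited intensities of 160, 185 and 274. In the gPS OG2-ROSA lines it was 4.82, 5.43 and 5.62, with detection p-values of 0.322, 0.0702 and 0.0476. It was 4.83, 4.98 and 4.84 in GSC OG2, 4.62, 4.65 and 4.79 in GSC OG2-ROSA, and 4.78 and 4.74 on the ESC arrays. Every gPS OG2 line thus lay above all other arrays, line 3 the highest and line 1 the closest to the detection limit of its array at 5.98. The mean was 6.84 ± 0.86 in gPS OG2 and 5.29 ± 0.42 in gPS OG2-ROSA (SD, n = 3 each). Lines 1 and 2 of gPS OG2-ROSA are the dim arrays. Line 3 had a mean intensity of 579.9, and Cdx2 was undetected there too. The part of array signal in these levels was not tested. Of the 13034 probes tested, 8 shared this pattern of detection on all 3 gPS OG2 arrays and on no other, 0.0614% of all. The named genes among them were Cdx2, Fgf5, Bcl11a, Krt23, Cyp11b2, Reg2 and 1700102P08Rik, a list read off after the values were seen.

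Eomes, a T-box factor of trophoblast stem cells and the primitive streak, was low, with lines far apart in every group of lines but GSC OG2-ROSA. It was 7.13, 5.05 and 7.17 in GSC OG2 and 6.24, 6.16 and 6.16 in GSC OG2-ROSA. In gPS OG2 it was 5.84, 6.82 and 7.54, and in gPS OG2-ROSA 7.10, 5.48 and 6.03. The ESC arrays gave 5.96 and 5.59, both undetected. Eomes was detected in 5 of 6 GSC lines, missing line 2 of OG2, and in gPS OG2 lines 2 and 3 and gPS OG2-ROSA line 1. The ranges of GSC and gPS overlapped, and the SD between lines (1.21 in GSC OG2, 0.86 in gPS OG2 and 0.83 in gPS OG2-ROSA) was larger than the difference between the mean of GSC and that of gPS (6.32 and 6.47), whereas the 3 GSC OG2-ROSA lines lay close together (6.16 to 6.24).

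Tfap2c, an AP-2 family factor of trophoblast stem cells and germ cells, was the one member detected on every array. At its brightest probe, ILMN_2783225, it was 8.91, 9.42 and 7.58 in GSC OG2 and 8.12, 8.98 and 8.53 in GSC OG2-ROSA. It was 12.40, 11.15 and 11.90 in gPS OG2, 9.70, 10.67 and 11.76 in gPS OG2-ROSA, and 12.17 and 11.94 in ESC. At this probe every gPS and ESC array lay above every GSC array, and gPS OG2-ROSA line 1 was the lowest of the pluripotent cells. The other probes followed the same course, with correlations between probes of 0.984 to 0.995 over the 14 arrays. At ILMN_1231632, gPS OG2-ROSA line 1 (6.98) overlapped the GSC arrays, of which OG2 line 2 reached 7.16.

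Tead4, the TEAD factor that partners Yap1 in the trophectoderm, was detected by 2 of its 3 probes. At ILMN_3157399, which the platform assigns to another transcript record, it was 7.45, 8.12 and 7.52 in gPS OG2, 6.70, 6.35 and 7.14 in gPS OG2-ROSA, and 7.51 and 7.52 in ESC. In GSC it was 5.12, 5.36 and 6.14 for OG2, where only line 3 was detected, and 5.13, 5.48 and 5.45 for OG2-ROSA, where none was. Every gPS and ESC array lay above every GSC array, and gPS OG2-ROSA lay below both gPS OG2 and ESC without overlap. At ILMN_2599986 the gPS OG2 lines were at 6.97, 7.52 and 6.30 and the ESC arrays at 6.34 and 6.79, all detected. The gPS OG2-ROSA lines were at 5.24, 5.97 and 5.68 and the GSC lines between 4.67 and 4.86 at that probe, all undetected. The levels at the 2 probes correlated at 0.925 over the 14 arrays.

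Dlx3, a homeobox factor of the placental labyrinth and of surface epithelium, ran the other way. It was 8.40, 7.23 and 7.86 in GSC OG2 and 7.90, 8.48 and 7.98 in GSC OG2-ROSA. It was 5.85, 6.10 and 6.08 in gPS OG2, where only line 3 was detected, 6.04, 6.91 and 6.22 in gPS OG2-ROSA, all detected, and 5.58 and 5.35 in ESC, both undetected. Every GSC array lay above every gPS array, and every gPS array above both ESC arrays.

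**Figure D2:**
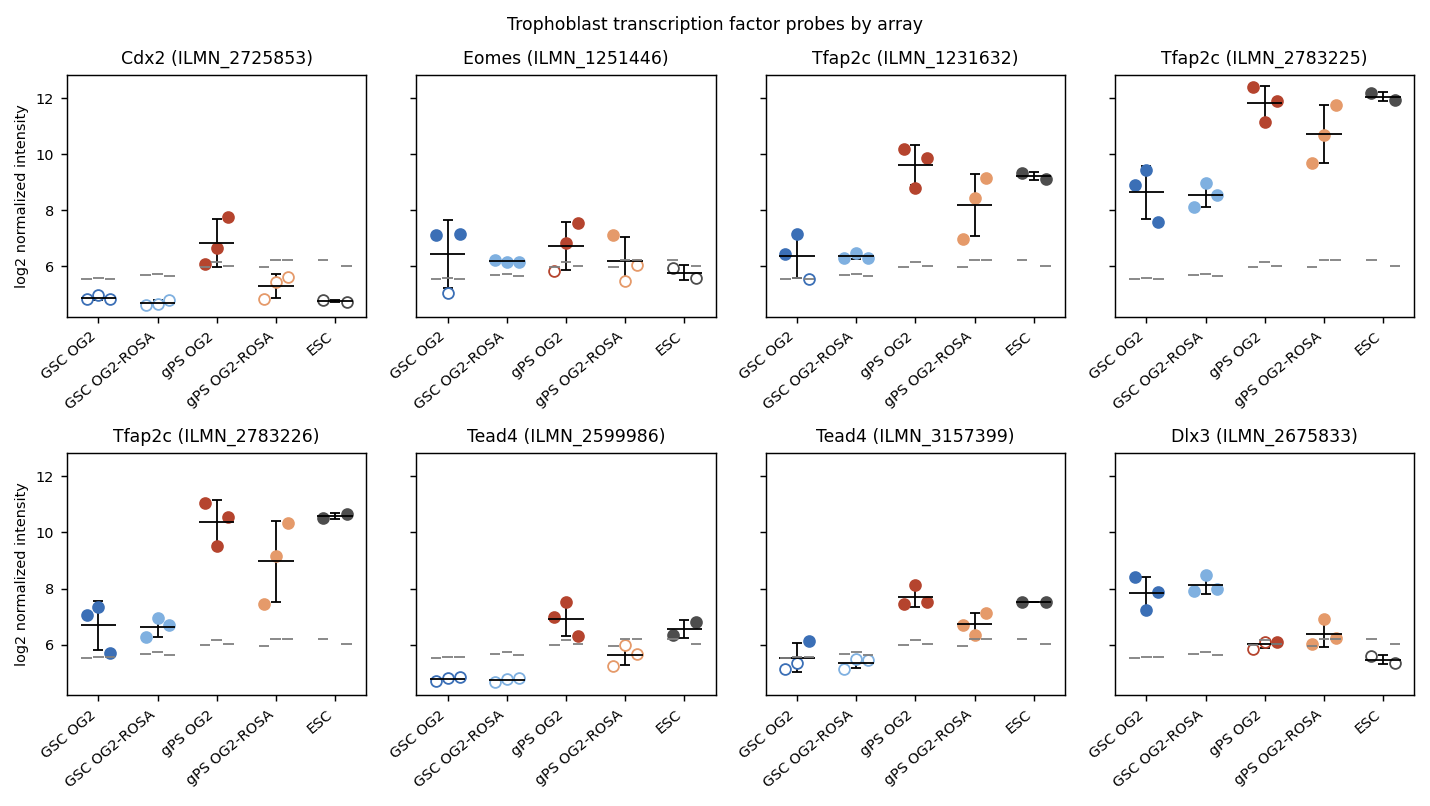
Log2 normalized intensity of the 8 tested probes by group; each point is 1 array (filled where detected, open where not), black bars give the mean ± SD, and grey ticks give each array's lowest detected signal. Dlx3 was highest in GSC (7.23 to 8.48), and Tfap2c and Tead4 in the pluripotent cells.

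Counted per array, different sets of the 7 factors were detected in the pluripotent lines. Line 3 of gPS OG2 had 5 detected, namely Cdx2, Eomes, Tfap2c, Tead4 and Dlx3. Line 2 had 4, with Dlx3 undetected, and line 1 had 3, with Eomes undetected too. The level of Dlx3 was not lower in line 2 than in line 3. The lowest detected signal was 6.16 on the array of line 2 against 6.01 on that of line 3. In gPS OG2-ROSA, line 1 had 4 detected (Eomes, Tfap2c, Tead4 and Dlx3), and lines 2 and 3 had 3 (Tfap2c, Tead4 and Dlx3). Both ESC arrays detected Tfap2c and Tead4 alone, and the GSC lines 2 to 4 factors. The lowest detected signal was lower on the GSC arrays than on the others, so these counts are not on the same scale. Eomes was detected in some gPS lines of each background, whereas Cdx2 was detected in all gPS lines of OG2 and in none of OG2-ROSA. Cdx2 in gPS OG2 line 1 (6.08) lay below the lowest detected signal of gPS OG2-ROSA lines 2 and 3 (6.22 and 6.21). The highest gPS OG2-ROSA level of Cdx2 (5.62) lay below that limit on every gPS OG2 array. A line is 1 array, so these differences between single lines have no test.

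The comparison of gPS with GSC asks how the factors differ between the pluripotent lines and the cell type they came from. Tfap2c and Tead4 were higher in gPS at every tested probe, Cdx2 was higher, Dlx3 was lower, and Eomes did not pass the test. Of the 8 tested probes 6 were called higher and 1 lower at an adjusted p under 0.05, where 63.9% of the 13034 tested probes were (30.4% higher and 33.5% lower). The median log2 change was 1.64 over the 8 probes and -0.04 over all tested probes. The groups did not overlap at 5 of the 8 probes, where 18.0% of all tested probes were higher and 20.4% lower without overlap. Tfap2c was higher by 2.67 on the log2 scale at ILMN_2783225 (SE 0.37, limma adjusted p = 3.08e-05), and by 2.52 and 3.01 at the other probes. Tead4 was higher by 1.77 at ILMN_3157399 (SE 0.20, limma adjusted p = 5.08e-06) and by 1.51 at ILMN_2599986 (SE 0.20, limma adjusted p = 1.79e-05). At the latter the GSC arrays were all undetected and 3 of 6 gPS arrays detected, and the fold against the GSC detection limit is 1.58. Cdx2 was higher by 1.28 (SE 0.24, limma adjusted p = 0.000386, 1.36-fold against the GSC detection limit), a mean over 3 detected and 3 undetected gPS lines. It entered the tests only through the gPS OG2 arrays, the group where it was highest. Tests of Cdx2 with that group, here and below, are therefore favoured by the detection filter. Dlx3 fell by 1.77 (SE 0.21, limma adjusted p = 7.53e-06). For Eomes the difference was 0.15, with a 95% interval of -0.70 to 1.00. With another background correction or the authors' processed values the calls held. Sizes moved by more than 1.5 times at every called probe but Tfap2c ILMN_2783225 and ILMN_2783226. Cdx2 ranged from 0.52 to 2.15, Tead4 from 0.60 to 2.55 at ILMN_2599986 and from 0.79 to 2.34 at ILMN_3157399, and Dlx3 from -0.99 to -2.09. Tfap2c ranged from 1.66 to 2.85 at ILMN_1231632, from 2.39 to 2.77 at ILMN_2783225 and from 2.19 to 3.31 at ILMN_2783226.

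Within the OG2 background 6 probes were called higher and 1 lower, where 49.4% of all tested probes were (23.2% higher and 26.2% lower). Cdx2, which was tested only because the gPS OG2 arrays detected it, was higher by 1.96 in gPS OG2 than in GSC OG2 (SE 0.34, limma adjusted p = 0.000367, at least 2.44-fold). Tfap2c was higher by 3.18 to 3.68 over its 3 probes and Tead4 by 2.16 at ILMN_3157399 and a fitted 2.14 at ILMN_2599986 (at least 2.60-fold, undetected in GSC OG2), and Dlx3 fell by 1.82. Within OG2-ROSA 5 probes were called higher and 1 lower, where 50.1% of all were (23.9% higher and 26.2% lower). Tfap2c was higher by 1.82 to 2.33 and Tead4 by 0.88 at ILMN_2599986 and 1.38 at ILMN_3157399 (at least 2.06-fold), and Dlx3 fell by 1.73. Without both dim arrays Tfap2c was higher by 2.78 to 3.69 in OG2-ROSA, against 3.17 to 3.68 in OG2 in the same fit. For Cdx2 the difference was 0.60 with a 95% interval of -0.12 to 1.33 (limma adjusted p = 0.154), both groups being undetected on every array. It was 0.98 without both dim arrays (limma adjusted p = 0.114). It was called with the authors' processed values (1.32, limma adjusted p = 0.0365) and without gPS OG2 line 3, an array of neither group compared (0.61, limma adjusted p = 0.0438). The call of Tead4 at ILMN_2599986 (limma adjusted p = 0.018), undetected in both groups, was lost without gPS OG2-ROSA line 2 (0.73, limma adjusted p = 0.0601), without GSC OG2-ROSA line 1 (0.83, limma adjusted p = 0.0557) and without both dim arrays (0.98, limma adjusted p = 0.0566).

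Whether the change from GSC to gPS differed between the backgrounds was tested directly. None of the 8 probes was called by limma, where 0.00767% of all tested probes were, and 2 of the 8 had an unadjusted p under 0.05. These were Cdx2, whose change in OG2-ROSA minus that in OG2 was -1.35 (95% interval -2.38 to -0.32, limma adjusted p = 0.871), and Tead4 at ILMN_2599986 (-1.26, interval -2.11 to -0.40, limma adjusted p = 0.865). For Dlx3 the difference was 0.09, with an interval of -0.83 to 1.00. The Tfap2c differences ran from -1.41 to -1.01, and without both dim arrays from -0.46 to 0.04; that of Cdx2 was then -1.03.

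The pluripotent lines of both backgrounds were also compared directly. None of the 8 probes was called between gPS OG2-ROSA and gPS OG2 by limma, where 0.222% of all tested probes were, and 5 had an unadjusted p under 0.05. The median over the 8 probes was -1.20, against 0.01 over all. Cdx2 was at 5.29 in OG2-ROSA against 6.84 in OG2, a difference of -1.55 (SE 0.34, limma adjusted p = 0.0895, all 3 lines of one group below all 3 of the other), which is at least 1.63-fold given that no OG2-ROSA array detected it. Tead4 differed by -1.30 at ILMN_2599986 (SE 0.28, limma adjusted p = 0.0818, at least 1.74-fold with no OG2-ROSA array detected) and by -0.97 at ILMN_3157399 (SE 0.29, limma adjusted p = 0.244), again with no overlap. The Tfap2c differences of -1.11 to -1.43 came with overlapping lines. Without both dim arrays, which leaves gPS OG2-ROSA line 3 alone, they were -0.06, -0.05 and -0.47, that of Tead4 was -0.56 at ILMN_3157399 and -1.27 at ILMN_2599986, and that of Cdx2 was -1.23. That line had the highest fibroblast marker mean of the gPS and ESC arrays (7.20, with 8 of 10 markers detected), whose part in these values was not tested. Cdx2 passed the threshold when gPS OG2 line 1 was left out (-1.94, limma adjusted p = 0.0402) or gPS OG2-ROSA line 3 was (-1.73, limma adjusted p = 0.0416), and Tead4 at ILMN_2599986 when gPS OG2 line 3 was (-1.62, limma adjusted p = 0.0459). Between GSC OG2-ROSA and GSC OG2 none of the 8 probes was called by limma, where 0.00767% of all were, and none had an unadjusted p under 0.05.

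Against ESC, which the labels call pluripotent as they do gPS, no probe was called for gPS by limma, where 0.345% of all tested probes were, and 2 of the 8 had an unadjusted p under 0.05. These were Cdx2, higher in gPS by a fitted 1.30 (95% interval 0.57 to 2.03, limma adjusted p = 0.150), and Dlx3, higher by 0.74 (interval 0.09 to 1.38, limma adjusted p = 0.434, 1.06-fold against the ESC detection limit). Without gPS OG2 line 1 the Cdx2 difference was 1.50 and passed (limma adjusted p = 0.0481). Tead4 differed by -0.29 and -0.30, with intervals from -0.92 to 0.32, and Tfap2c by -0.33 to -0.92, with intervals from -2.26 to 0.77. Without both dim arrays the Tfap2c differences were 0.15, -0.27 and -0.24, and Tead4 at ILMN_3157399 differed by -0.10. GSC against ESC gave 1 probe higher and 5 lower, where 50.5% of all were (26.4% higher and 24.0% lower). Dlx3 was higher in GSC by 2.51 (SE 0.30, limma adjusted p = 1.65e-05, at least 3.62-fold), and Tfap2c (-2.85 to -3.93) and Tead4 (-2.07 at ILMN_3157399, and at least 1.93-fold at ILMN_2599986, undetected in GSC) were lower. The comparisons with GSC and with ESC share arrays, so their values are given side by side only. The series text leaves it unclear whether duplicates were technical, so the ESC arrays may be 1 culture, in which case the p-values against ESC are too small.

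**Figure D3:**
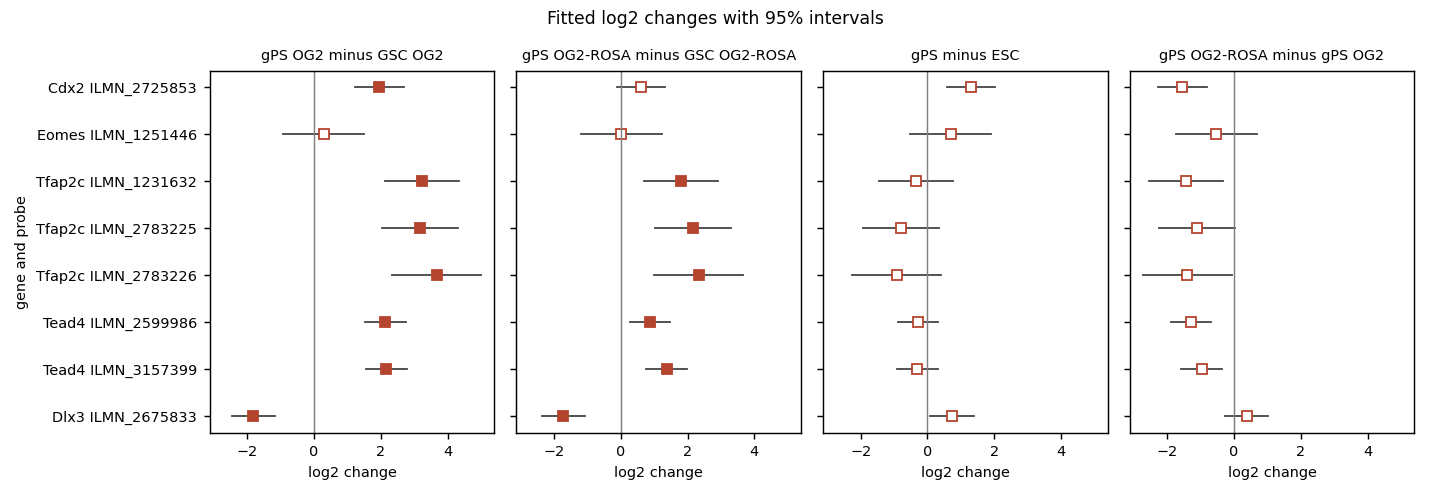
Fitted log2 change (horizontal axis) of the 8 tested probes in 4 comparisons, with 95% intervals; filled squares passed an adjusted p under 0.05 and open squares did not. Dlx3 lay left of zero and Tfap2c and Tead4 right of it in both gPS against GSC panels, and no probe passed in the other panels.

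The genes whose levels followed each factor most closely over the 14 arrays were taken at the 3 highest Pearson correlations, as a description. For Cdx2 they were Wnt8a (0.975), a Wnt ligand of the posterior epiblast and primitive streak, Acta1 (0.949), the skeletal muscle actin, and Ada (0.919), adenosine deaminase. Wnt8a was 5.47, 6.18 and 7.13 in gPS OG2 and 4.57, 5.56 and 5.09 in gPS OG2-ROSA, and was detected in gPS OG2 lines 2 and 3 alone. For Dlx3 they were Anapc4 (0.966), Bin1 (0.966) and Susd4 (0.961), for Tead4 Rbm47 (0.970), Nectin2 (0.964) and Limk2 (0.964), and for Tfap2c Smpdl3b (0.964), Avpi1 (0.962) and Ipmk (0.961). Eomes had no such close companion, its highest values being 0.809 for Rab11fip5, 0.770 for Dram2 and 0.714 for Lancl1. The arrays share their cell types, so a high correlation can arise from the difference between GSC and the pluripotent cells alone. For Cdx2 the correlations lean on a few gPS arrays instead. Wnt8a and Acta1 were both detected in gPS OG2 lines 2 and 3 alone. They passed the detection filter only through the group where Cdx2 was highest.

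**Figure D4:**
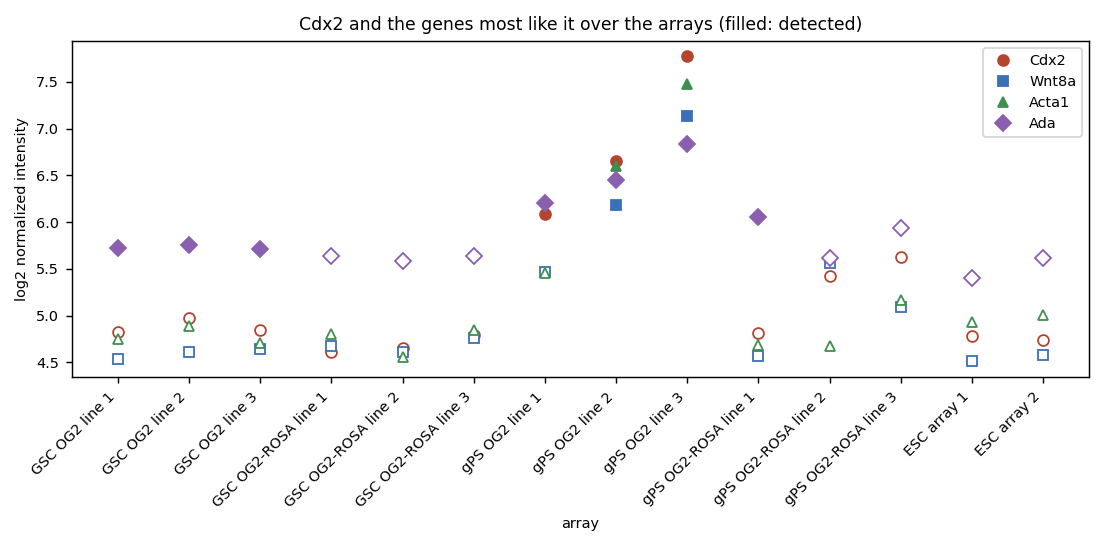
Log2 normalized intensity of Cdx2, Wnt8a, Acta1 and Ada on each of the 14 arrays (filled where detected). All 4 were highest in gPS OG2 line 3, where Cdx2 was at 7.78 and Wnt8a at 7.13.

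Cdx2 and Eomes are shared with the primitive streak, and a list of 14 streak and mesendoderm genes was read beside them. Of the 6 tested, 2 fell from GSC to gPS and 0 rose, where 33.5% of all tested probes were lower and 30.4% higher. Lhx1 fell by a fitted 1.51 (1.03-fold against the gPS detection limit) and Foxa2 by a fitted 1.06, both undetected in every gPS line. In the OG2 background Lhx1 fell (1.07-fold against the gPS OG2 detection limit, limma adjusted p = 0.0167). There 2 of the 6 rose, where 23.2% of all tested probes were higher and 26.2% lower. These were Evx1 (2.42-fold against the GSC OG2 detection limit, limma adjusted p = 0.0178) and Fgf8 (2.47-fold against it, limma adjusted p = 0.0103). Both were undetected in GSC OG2 and named after their values were seen. Evx1 was 4.99, 8.65 and 6.85 in gPS OG2 and 4.72, 5.14 and 5.31 in gPS OG2-ROSA. Fgf8 was 5.36, 7.36 and 7.86 in gPS OG2 and 4.75, 4.71 and 4.94 in gPS OG2-ROSA. Both were detected in gPS OG2 lines 2 and 3 alone, the OG2 lines in which Eomes was detected and Cdx2 was highest. Evx1 and Fgf8 thus entered the tests only through the group where they were high. Lhx1 and Foxa2 were detected in GSC alone and entered only through the cell type where they were high. The detection filter favoured the calls of these genes, which are given as a description. Between the gPS backgrounds none of the 6 was called by limma, where 0.222% of all tested probes were, and 3 had an unadjusted p under 0.05. Mixl1, Mesp1 and Gsc were detected on no array.

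Trophoblast genes beyond the 7 factors were taken from a list of 36, of which 20 were tested. From GSC to gPS 11 rose, 2 fell and 7 did not pass, where 30.4% of all tested probes were higher and 33.5% lower, with a median of 1.20 against -0.04 over all. Klf5, a factor shared by trophectoderm and pluripotent cells, rose by 5.48, Id2, an inhibitor of helix-loop-helix factors found in trophectoderm, by 2.69, and the X-linked homeobox gene Rhox9 by 2.49. The imprinted placental gene Peg10 rose by 2.18, the simple-epithelium keratin Krt8 by 2.18, and Wnt7b by 2.05 (2.06-fold against the GSC detection limit). None of the 20 was called by limma between gPS and ESC, where 0.345% of all tested probes were, and 3 had an unadjusted p under 0.05. Between the gPS backgrounds, where 0.222% of all tested probes were called, 1 of the 20 was, Id2. Its level was 9.72, 9.29 and 9.38 in OG2 and 7.47, 6.41 and 7.79 in OG2-ROSA. Lines 1 and 2 of OG2-ROSA are the dim arrays, and line 3, at 7.79, also lay below every OG2 line. The part of array signal in the Id2 levels was not tested. Its difference was -2.24 (SE 0.38, limma adjusted p = 0.0346), and the ESC arrays were both at 7.80, level with the highest OG2-ROSA line.

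Markers of trophoblast as a cell type were read beside the factors. Of 8 trophoblast stem cell markers, a list that includes 4 of the factors themselves, 4 to 6 were detected in each gPS OG2 line, 2 or 3 in each gPS OG2-ROSA line, 2 in ESC and 2 or 3 in each GSC line. Their mean log2 intensity was 6.47 to 7.08 in gPS OG2, 5.97 to 6.49 in gPS OG2-ROSA and 6.38 to 6.43 in ESC. Gata3 was detected in gPS OG2 line 3 and GSC OG2 line 2 alone, Krt7 in gPS OG2 lines 1 and 3 alone, and Elf5 and Plet1 nowhere. The 6 markers of differentiated trophoblast on the array, Hand1 among them, were undetected in every sample, with means of 4.54 to 4.80.

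For the Hippo pathway and partners of Tead4, 3 of 14 tested genes rose from GSC to gPS, 4 fell and 7 did not pass, with a median of 0.35. These shares were not above those over all tested probes (30.4% higher, 33.5% lower). Yap1, the co-activator, rose by 1.71, its regulator Wwc1 by 2.10 and the YAP target Ccn2 by 1.39. Axl, a receptor kinase and YAP target, fell by 1.83, the scaffold Sav1 by 1.33 and Vgll4, which competes with Yap1 for TEAD factors, by 1.09. None of the 14 was called by limma between gPS and ESC, where 0.345% of all tested probes were, and 0 had an unadjusted p under 0.05. None was called between the gPS backgrounds, where 0.222% of all were, and 3 had an unadjusted p under 0.05. Of the other TEAD factors, Tead2 was detected on every array and Tead1 and Tead3 on none.

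**Figure D5:**
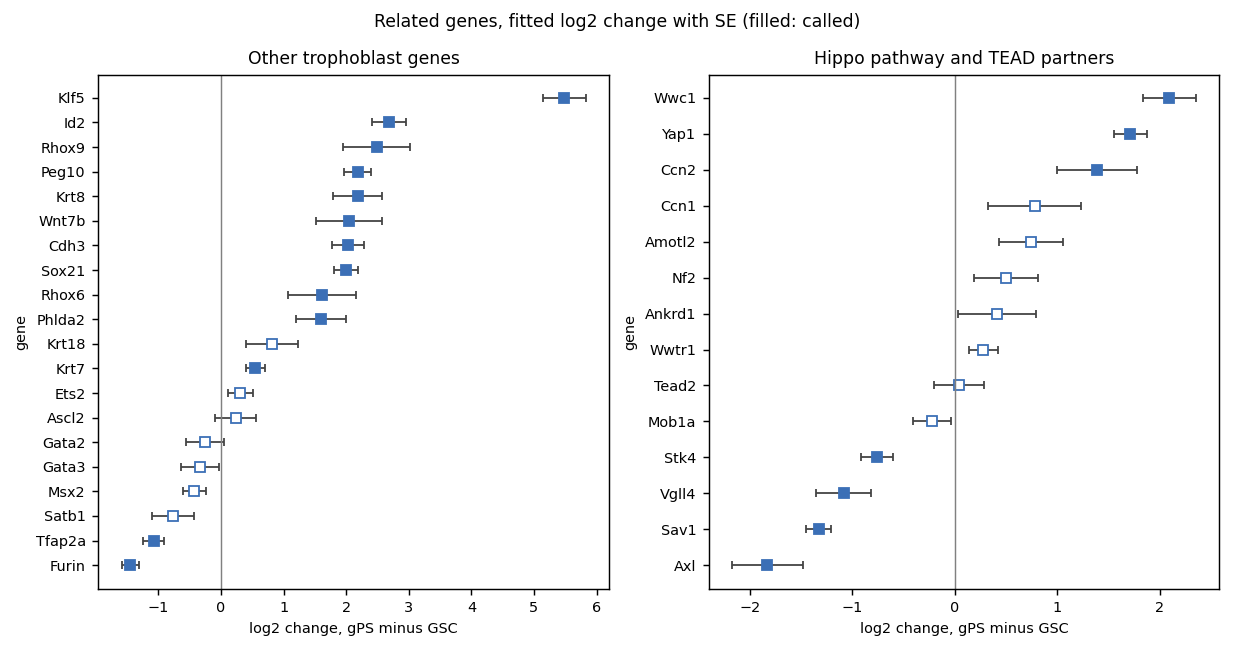
Fitted log2 change from GSC to gPS with its SE for the tested trophoblast genes (left) and Hippo pathway genes (right); filled squares passed an adjusted p under 0.05. Klf5 rose most among the former (5.48), and the latter held 3 that rose and 4 that fell.

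Among 9 tested relatives of the factors 4 rose and 4 fell from GSC to gPS. As for the other lists, 30.4% higher and 33.5% lower over all tested probes is the level to read these counts against. The ETS factor Elf3, a relative of the undetected Elf5, rose by 3.91 (at least 8.87-fold), Tbx3, of the same family as Eomes, by 3.53 and Elf1 by 0.96, while Elf2 fell by 1.26 and Tfap2a, undetected in every gPS line, by a fitted 1.08. Cdx1, the relative of Cdx2, rose by 2.50 and did not follow it among the lines. It was 5.75, 8.57 and 9.45 in gPS OG2 and 8.47, 8.52 and 6.91 in gPS OG2-ROSA, so that gPS OG2 line 1 was low for Cdx1 while detecting Cdx2. Of 5 tested early mesoderm genes that go with Hand1, Bmp4 rose by 4.14 and Tbx3 rose, and Foxf1 fell by 4.47 (at least 9.40-fold) and Isl1 by a fitted 1.51, both undetected in every gPS line. Of 8 tested surface epithelium genes that go with Dlx3 and Elf5, 5 rose and 1 fell. Cldn4, a tight junction claudin, rose by 5.94 (at least 43.3-fold) and E-cadherin (Cdh1) by 4.78. Ovol1 rose by 0.96 (1.42-fold against the GSC detection limit) and Grhl3 by 0.68, all against the direction of Dlx3. The splicing factor Esrp1 fell by 1.09. Tfap2a, Foxf1 and Isl1 were detected in GSC alone and Ovol1 in gPS alone, so the detection filter favoured their calls.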

How the data were processed

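The deposited probe intensity is on a linear scale and not background-subtracted, per the file headers and the values, and each comes with a detection p-value, per the file headers. BeadStudio 3.2, RMA and lumi are named per the submitters' processing notes, with no step given for each. The authors' processed values were deposited on a log2 scale (base inferred from the values), with a median of 4.23 in every column and the ranks of the intensities. Their background correction is unstated. They were used as an alternative.

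The neqc function of limma 3.58.1 (R 4.3.3, offset 16) normalized the intensities. Probes detected at p under 0.01 on at least 2 arrays were tested, 13034 of 25697. Symbols came from the platform annotation (23978 probes with 1 symbol, 1719 unlisted). The 5 group means were fitted to all 14 arrays, 8 contrasts were tested, and p-values were Benjamini-Hochberg adjusted over all tested probes. Precision is limited by the number of arrays. For a probe undetected in a whole group, the fold is a lower bound against the mean over that group's arrays of the higher of the array's lowest detected signal and the probe's own value. The fits were tested on simulated data.

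The factors and lists were chosen with earlier results of these data known. Named list genes are the called ones with the largest change, up to 6 per list and comparison, at the tested probe with the highest mean. Samples were not paired by line number in the fits. Correlations of same-numbered lines were -0.23 to 0.08, with none taken between differently numbered lines. Whether a gPS line came from the GSC line of the same number was not tested. Nothing says that lines came from separate animals, so p-values measure the spread between these samples. Alternatives varied the correction of background, the scaling, the filter, the groups fitted and a line block, and left out arrays.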

Additional observations from a re-analysis of the deposited data

How the results depend on the processing

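Over 64 values (8 probes in 8 comparisons) and 1472 alternative fits of them, 1462 kept the direction of any call and the side of the threshold, 4 lost a call, 6 gained one and none reversed one. Uncalled values changed sign in 42 cases, of size 0.436 at most and adjusted p 0.505 or more. Leaving out 1 array moved the number of called probes between 0 and 1 for gPS against ESC and for gPS OG2-ROSA against gPS OG2. It was 1 without gPS OG2 line 1 in both, and without gPS OG2 line 3 or gPS OG2-ROSA line 3 in the latter. Tead4 at ILMN_2599986 in OG2-ROSA also lost its call with no background correction (0.33, limma adjusted p = 0.0753). With the line number as a replicate block, the numbers of called probes among the 8 were as before (7, 7, 6, 0, 0, 6, 0 and 0 over the comparisons), and 9 instead of 29 of all probes were called between the gPS backgrounds. That count ran from 7 to 220 over all alternatives, highest without gPS OG2-ROSA line 3. It ran from 6 to 135 for gPS against ESC (45), from 4308 to 7766 for GSC against ESC (6576), from 1 to 12 for the difference between backgrounds (1) and from 0 to 81 between the GSC backgrounds (1). The ESC arrays averaged gave the lowest count for GSC against ESC, and 6 calls for gPS against ESC. Leaving out both dim arrays was chosen after the array signals were seen. A block for the chip was not run because no column names the chip. Detection near background limits Cdx2, Eomes and Tead4 at ILMN_2599986: undetected means not well above background, not absent.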
